A study of Mus musculus with 2 samples.

Results

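Imprinted genes are transcribed mainly from the copy inherited from 1 parent, and a set of 35 such genes was followed in teratomas of mouse embryonic stem cells (ESCs). The set covers 16 imprinted regions and leaves out Igf2, H19 and their partners. Genes were taken by their symbols from the 45777 genes of the deposited mm10 expression table, and all 35 had a row. They were grouped by region and by the allele known to be expressed, with 20 genes expressed from the paternal allele, 8 from the maternal allele and 7 whose imprinting depends on the tissue or the transcript. The members were chosen by name from general knowledge, with earlier results of these data known.

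Genomic imprinting works through DNA methylation that is laid down differently in sperm and in eggs at imprinting control regions and is kept through the cell divisions of the embryo. Each control region acts on a cluster of neighbouring genes, often through a long noncoding RNA (lncRNA) made from 1 parental copy, so that genes of a cluster can have opposite parental expression. Paternally expressed genes are often linked with fetal growth and maternally expressed genes with its restraint, and many imprinted genes are most active in the embryo, the placenta and the developing brain.

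The study asked how loss of an O-GlcNAc modification site at threonine 258 of Sox2, a core transcription factor of ESCs, affects self-renewal and early cell fate. The control group was E14, a male mouse ESC line with both copies of Sox2 unaltered, and the other was E14-Sox2TA/WT, an E14 derivative in which CRISPR/Cas9 had changed threonine 258 to alanine on 1 Sox2 allele and which was grown from colonies of single cells. The edited clones were normally kept in serum, leukemia inhibitory factor (LIF) and added kinase inhibitors, which were removed before the experiments. For E14, culture in serum and LIF is described. Any effect of this culture history cannot be told apart from that of the edit. Cells of each line were placed under the skin of BALB/c-nu mice, 3 mice per group, and the teratomas were harvested at day 14. RNA-seq gave 1 library per group, and the sources used here do not say whether a library came from a single teratoma or a pool. Sample labels name teratoma tissue, while their extraction protocol speaks of an ESC line. Both libraries can hold RNA of the nude mouse host beside that of the injected cells, the age of the hosts was not given in the sources used here, and the table does not separate parental alleles, so the expressed allele is background knowledge and was not measured.

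The E14 library held 50529171 reads on genes and the E14-Sox2TA/WT library 49030281. Levels are given as TPM, a measure of transcript abundance that is corrected for transcript length and library depth, together with read counts. A gene was called higher or lower when its TPM differed by more than 2-fold and reached 10 in either library, the rule stated in the study's methods. Intervals after a fold are exact Clopper-Pearson 95% intervals of the read counts carried to the TPM ratio. They cover counting error only and compare 2 libraries, not 2 conditions. With 1 library per group no test was possible, and no difference below has a replicate check. FPKM multiplied by 2.33 gave the TPM of the E14 library, and by 2.03 that of the E14-Sox2TA/WT library, so the ratio of TPM was lower than the ratio of FPKM for every gene. Among whole chromosomes, the median log2 ratio of TPM with 1 added was -0.48 over 925 genes of chromosome 8, 0.35 over 742 genes of chromosome 15, -2.94 over 8 genes of the Y chromosome and 0.93 over 36 mitochondrial genes, against -0.06 over all 18558 genes with a TPM of at least 1. Chromosome 15 carries 2 of the imprinted genes studied, and chromosomes 8 and Y carry 0.

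Most of the imprinted genes had lower TPM in the E14-Sox2TA/WT library. Among the 29 that reached a TPM of 10 in either library, 13 were called lower, or 44.8%, while 18.7% of all 11578 genes that passed the same filter were called lower. The number called higher was 0, where 10.8% of all genes were called higher. Of the 34 imprinted genes with a TPM of at least 1, 30 were lower and 4 were higher, with log2 ratios from -4.13 to 1.54 around a median of -0.81. Over all 18558 genes at that level, 52.5% were lower, with a median of -0.06. Over all genes that reached a TPM of 10 in either library, the median was -0.18. In bulk tissue, fewer cells of a type and less RNA per cell cannot be told apart, and this holds for every value below.

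Summed over the 35 genes, TPM was 6944 for E14 and 3365 for E14-Sox2TA/WT. Nnat and Ndn made up much of this sum, and without them it was 3861 and 2297. The 13 genes called lower were Dlk1, Usp29, Sgce, Cdkn1c, Grb10, Snrpn, Ndn, Magel2, Mkrn3, Nnat, Zrsr1, Trappc9 and Inpp5f, from 10 of the 16 regions. All 13 passed the 2-fold threshold under each of 6 scalings of the values. On TPM, Nnat, at 2.32-fold, was the nearest to the threshold among them, and Gnas, at 1.81-fold, was the nearest on the other side. On reads per library total, Meg3, at 1.80-fold, was nearer to it than Gnas, at 1.54-fold.

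**Figure D1:**
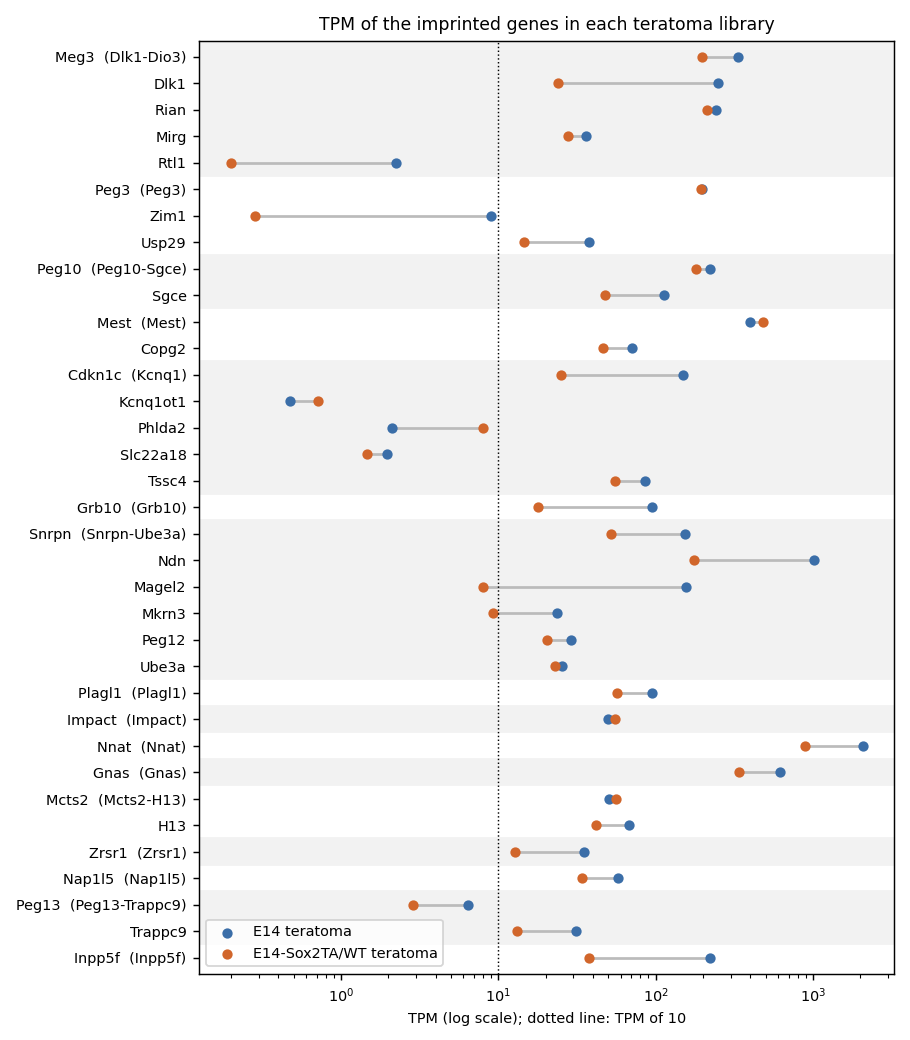
TPM of each imprinted gene (log axis) in the E14 teratoma library (blue) and the E14-Sox2TA/WT teratoma library (orange), ordered by region, with 1 library per group. The orange point lies left of the blue point for most genes, by far the most for Zim1 (9.04 and 0.284), Magel2 (156 and 7.96), Rtl1 (2.22 and 0.200) and Dlk1 (249 and 23.8), and right of it for Mest, Kcnq1ot1, Phlda2, Impact and Mcts2.

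The Dlk1-Dio3 region on chromosome 12 pairs paternally expressed protein-coding genes with maternally expressed lncRNAs and the small RNAs cut from them. Dlk1, a membrane protein related to the Notch ligands and active in embryonic tissues, lies at chr12:109452485-109463336. Its 16695 reads in the E14 library stood against 1483 in the E14-Sox2TA/WT library. In TPM this was 249 and 23.8, a level 10.5-fold lower (9.92 to 11.0). The transcript length implied by its counts and FPKM was 3091 nt in the first library and 2579 nt in the second.

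Rtl1, the other paternally expressed gene of the set in this region, is a retrotransposon-derived gene needed in fetal vessels and muscle. Its reads were 1642 and 165 and its TPM 2.22 and 0.200, so it was 11.1-fold lower (9.48 to 13.1) but under the TPM filter. This level needs care, since counts and FPKM imply a length of 34082 nt for Rtl1 in the E14 library, while the GENCODE transcript has 6358 nt. The row may therefore hold reads of more than the coding transcript, and the use of strand in counting is not given in the sources used here. Dio3, a paternally expressed gene that gives the region its name but is not in the set, had 196 and 135 reads. Its TPM was 4.35 and 2.69, 1.62-fold lower (1.29 to 2.03) and under the TPM filter.

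The maternally expressed lncRNAs of the same region differed less between the libraries than Dlk1. Meg3, which begins the maternal transcripts, lies at chr12:109540996-109571729 and had 39119 and 21065 reads. Its TPM was 335 and 198, 1.69-fold lower (1.66 to 1.72), and its reads per library total were 1.80-fold lower. The length implied by its counts and FPKM was 5380 nt for E14 and 4402 nt for E14-Sox2TA/WT. Rian, a host of small nucleolar RNAs, had 20757 and 20325 reads and a TPM of 241 and 211, which was 1.14-fold lower (1.12 to 1.16). This direction depended on the scaling, since the ratio of Rian reads per library total was 1.01. Mirg, a host of microRNAs, had 1126 and 965 reads and a TPM of 36.0 and 27.6, or 1.30-fold lower (1.19 to 1.42).

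The balance inside the region was thus not the same in both libraries. The TPM of Dlk1 was 0.743 times that of Meg3 for E14 and 0.120 times for E14-Sox2TA/WT. Rian stood at 0.717 times Meg3 in the first and at 1.06 times in the second, and Mirg at 0.107 and 0.139 times.

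Rtl1 and the microRNAs of this region are known as an antisense pair, in which microRNAs made from the maternal copy match the paternal Rtl1 transcript without mismatch. In RefSeq and GENCODE sequences (GRCm38), 11 of the 112 mature microRNAs of the region, from 6 precursor genes, had a full complement in the 6358 nt of Rtl1. They carry 11 distinct seeds, so they do not form a seed family. Of these, 3 are printed because they span the Rtl1 transcript from near its start to beyond its middle, each 5′ to 3′ with the seed (bases 2 to 8) in capitals, and below each its site in Rtl1 with the bases opposite the seed in capitals. The mature sequences lie on the plus strand of chromosome 12, at chr12:109595331-109595352 for the first, chr12:109592888-109592909 for the second and chr12:109591781-109591802 for the third.
mmu-miR-136-5p: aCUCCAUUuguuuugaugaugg
Rtl1, positions 199 to 220: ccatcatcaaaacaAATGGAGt
mmu-miR-127-3p: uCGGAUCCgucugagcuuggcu
Rtl1, positions 2642 to 2663: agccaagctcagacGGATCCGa
mmu-miR-433-3p: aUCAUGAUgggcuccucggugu
Rtl1, positions 3749 to 3770: acaccgaggagcccATCATGAt
The libraries cannot show these microRNAs well. All 60 precursor genes of the region had a row in the table, 26 of them with 0 reads in both libraries. The highest count was 9 for E14 and 13 for E14-Sox2TA/WT, and the rows summed to 92 and 83 reads. Reads on precursor rows are not a measure of mature microRNAs, so the levels of these were not measured.

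The genes of the Peg3 region on chromosome 7 differed widely in their ratios. Peg3, a paternally expressed zinc finger protein that acts in growth and maternal behaviour, had 38854 and 45164 reads. Its TPM was 196 and 194, a ratio that counting error does not resolve from equality (1.01-fold lower, 0.997 to 1.02). On reads per library total it was 1.20 times higher in the E14-Sox2TA/WT library, so its direction depended on the scaling. Usp29, a ubiquitin-specific protease gene read from the same promoter region in the other direction, is also paternally expressed. It had 5214 and 2039 reads and a TPM of 37.9 and 14.5, 2.62-fold lower (2.49 to 2.76), and was called lower. Zim3, on the other strand, overlaps 2582 of its exon bases and had 2 and 49 reads.

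Zim1, a zinc finger gene next to Peg3 at chr7:6674444-6696540, is the maternally expressed gene of this region. It had 1414 reads in the E14 library but 52 in the E14-Sox2TA/WT library. Its TPM of 9.04 and 0.284 made it 31.8-fold lower (24.1 to 42.9), the largest fold among the 35 genes, although its TPM stayed below the level of 10 that a call requires. Peg3 thus stood at 21.7 times the TPM of Zim1 for E14 and at 685 times for E14-Sox2TA/WT.

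The Peg10-Sgce region on chromosome 6 holds a pair of paternally expressed genes read in opposite directions from adjoining starts. Peg10, a retrotransposon-derived gene needed for the placenta, had 35699 and 32374 reads and a TPM of 223 and 181, 1.23-fold lower (1.21 to 1.25). Sgce encodes epsilon-sarcoglycan, a membrane protein of the dystrophin-associated family. It had 4645 and 2175 reads and a TPM of 113 and 47.4, 2.39-fold lower (2.27 to 2.51), and was called lower. The ratio of Peg10 to Sgce was 1.97 for E14 and 3.81 for E14-Sox2TA/WT.

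Mest on chromosome 6, a paternally expressed gene of the alpha/beta hydrolase family named for its expression in mesoderm, was among the few higher genes. It had 25299 and 33821 reads and a TPM of 397 and 482, 1.21-fold higher (1.19 to 1.23), and it was higher under every scaling. Copg2 encodes a coat protein of transport vesicles and runs into the end of Mest from the other strand, with 912 shared exon bases, or 23.1% of the exon bases of Mest. Copg2 had 6898 and 5015 reads and a TPM of 71.0 and 46.5, 1.53-fold lower (1.47 to 1.59). Reads in the shared stretch cannot be assigned without strand.

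In the Kcnq1 region on chromosome 7, a paternally transcribed lncRNA, Kcnq1ot1, keeps the neighbouring genes silent on the paternal copy. Cdkn1c, the maternally expressed inhibitor of cyclin-dependent kinases also named p57, lies at chr7:143458339-143461059. It had 6870 and 1308 reads and a TPM of 149 and 25.2, 5.90-fold lower (5.56 to 6.27). It was the only maternally expressed gene of the set that was called lower, and Zim1, which had a larger fold, did not pass the TPM filter.

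Phlda2 is maternally expressed in the same region, restrains the growth of the placenta, and went the other way. Its reads were 38 and 166 and its TPM 2.096 and 7.98, 3.81-fold higher (2.66 to 5.57) but below a TPM of 10 in both libraries. The ratio of Cdkn1c to Phlda2, both silenced on the paternal copy, was 70.9 for E14 and 3.16 for E14-Sox2TA/WT. Slc22a18, a membrane transporter gene, had 70 and 59 reads and a TPM of 1.96 and 1.47, a difference that was not resolvable at this depth (1.34-fold lower, 0.932 to 1.92).

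Tssc4, which takes part in the assembly of a spliceosomal particle, had 2883 and 2412 reads. Its TPM was 85.4 and 55.2, 1.55-fold lower (1.47 to 1.63). Kcnq1ot1 itself had 952 and 1612 reads, 1.52-fold higher in TPM (1.40 to 1.64). Over its long transcript this was a TPM of only 0.474 and 0.719, so it was below 1 in both libraries and is left out of the medians.

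Grb10 on chromosome 11 encodes an adaptor that binds the insulin and IGF receptors and restrains growth, and it is read from the maternal copy in most tissues but from the paternal copy in neurons. It had 11596 and 2457 reads and a TPM of 94.9 and 17.96, 5.28-fold lower (5.06 to 5.52). Inpp5f on chromosome 7 encodes a phosphoinositide phosphatase, and a short variant of it is read from the paternal copy in brain. Its reads were 21553 and 4167 and its TPM 223 and 37.7, 5.91-fold lower (5.72 to 6.11). Both were called lower, and the table gives 1 value per gene, so the variants were not separated.

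The Snrpn-Ube3a region on chromosome 7 corresponds to the human region of Prader-Willi and Angelman syndromes. Over its 6 genes the median log2 ratio was -1.40 on TPM and -1.20 on reads per library total. All 6 had lower TPM, and 4 of them were called lower, or 66.7% beside the 18.7% of all genes. Ndn, the MAGE-family protein necdin, restrains growth and is abundant in neurons after their last division. Its reads numbered 40212 for E14 and 7738 for E14-Sox2TA/WT, a TPM of 1012 and 174, which was 5.80-fold lower (5.66 to 5.95).

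Magel2, also of the MAGE family, works with ubiquitin ligases in endosomal protein recycling and is known from the hypothalamus. It had 17491 and 998 reads and a TPM of 156 and 7.96, 19.6-fold lower (18.4 to 20.9), the largest fold among the genes that were called. Ndn stood at 6.49 times Magel2 in the first library and at 21.9 times in the second, although the genes lie next to each other at chr7:62348277-62349928 and chr7:62376979-62381640. Their promoter windows, from RefSeq on GRCm38.p6 (250 bases before to 50 after the start, plus strand), are printed because these paternally expressed neighbours, both called lower, can be set side by side. CG dinucleotides, the sites of DNA methylation, are in capitals, with 11 in the Ndn window at chr7:62348027-62348326 and 10 in the Magel2 window at chr7:62376729-62377028.
Ndn: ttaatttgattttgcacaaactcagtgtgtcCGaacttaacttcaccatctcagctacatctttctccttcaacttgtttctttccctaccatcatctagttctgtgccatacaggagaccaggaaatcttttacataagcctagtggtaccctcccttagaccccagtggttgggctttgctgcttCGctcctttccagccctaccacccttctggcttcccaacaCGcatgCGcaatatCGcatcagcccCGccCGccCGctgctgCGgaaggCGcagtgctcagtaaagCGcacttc
Magel2: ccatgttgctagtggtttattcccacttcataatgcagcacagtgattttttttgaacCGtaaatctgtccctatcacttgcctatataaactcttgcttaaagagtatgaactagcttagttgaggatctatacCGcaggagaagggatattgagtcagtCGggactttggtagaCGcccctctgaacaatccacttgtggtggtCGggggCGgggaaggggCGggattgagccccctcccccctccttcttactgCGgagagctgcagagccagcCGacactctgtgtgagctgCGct
The files hold no methylation, so the windows describe sequence only.

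Further genes of this region had smaller differences. Mkrn3, a RING finger protein that acts before puberty, had 1457 and 639 reads and a TPM of 23.6 and 9.29, 2.54-fold lower (2.32 to 2.80). Peg12, a member of the Frat family that binds the kinase GSK3, had 1848 and 1457 reads and a TPM of 29.1 and 20.5, 1.42-fold lower (1.32 to 1.52). Mkrn3 was called lower and Peg12 was not.

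Snrpn encodes a splicing protein, SmN, that is most abundant in brain. Its reads were 7527 and 2885 and its TPM 153 and 52.0, 2.94-fold lower (2.82 to 3.07). Of the stretches of 50 nt in its transcripts, 21.7% also occur in another annotated gene, mainly Gm38393, so part of this count is uncertain. Snurf, which shares exon bases with Snrpn, had a TPM of 72.9 and 22.7.

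Ube3a, the ubiquitin ligase that neurons read from the maternal copy, gave different directions on different scales. Its TPM was 25.5 and 23.0, 1.11-fold lower (1.06 to 1.15). Its reads were 4147 and 5582, and per library total the ratio was 1.39 (1.33 to 1.44), that is, higher in the E14-Sox2TA/WT library. The length implied by its counts and FPKM was 7514 nt in the E14 library and 10042 nt in the other, the largest such gap in the set. Snhg14, the paternally read antisense transcript of Ube3a, overlaps 1803 of its exon bases and had a TPM of 7.07 and 7.97. Without strand the reads of the pair cannot be told apart.

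**Figure D2:**
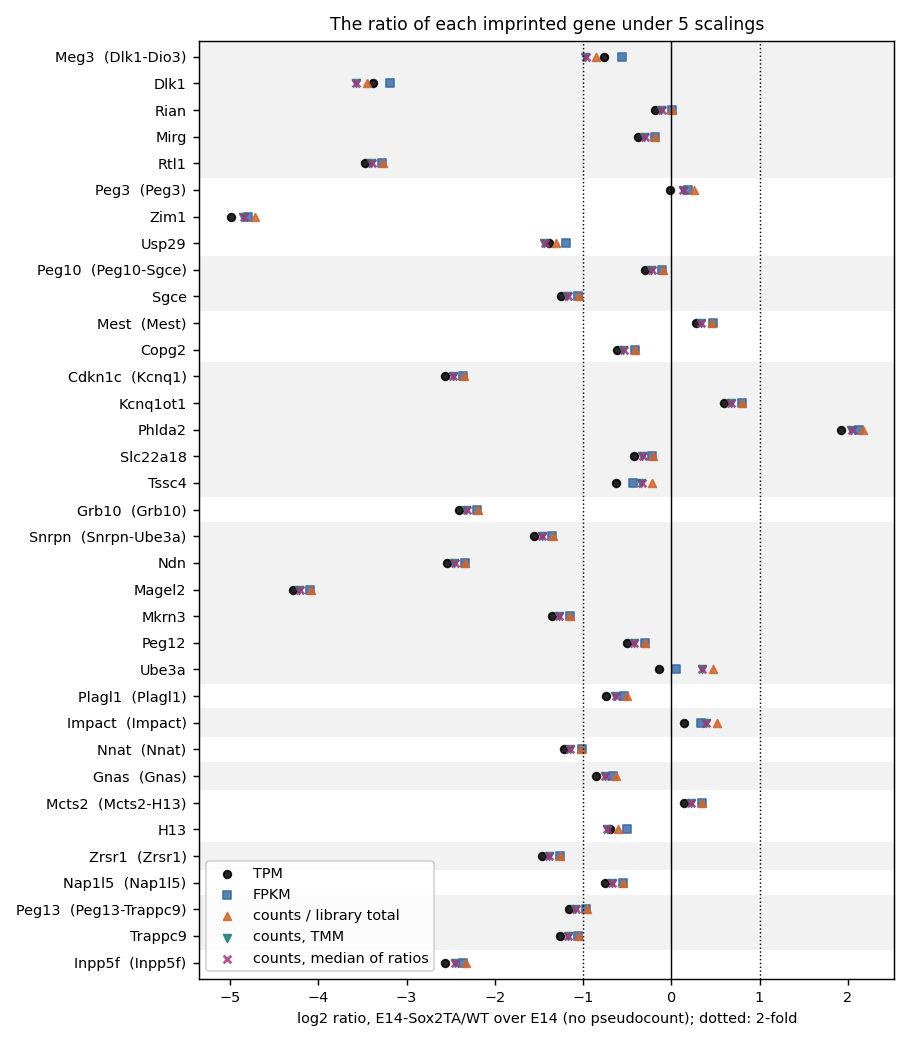
The log2 ratio of each imprinted gene, E14-Sox2TA/WT over E14, without a pseudocount, from TPM, from FPKM and from read counts divided by the library total or by TMM or median-of-ratios factors (1 symbol each), with dotted lines at 2-fold. Symbols of a gene lie close together, and Rian, Peg3 and Ube3a are the 3 genes whose symbols fall on both sides of 0.

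Nnat on chromosome 2, a small membrane protein of developing neurons that affects calcium handling, was the most abundant of the 35 genes in both libraries. It had 61635 and 29458 reads and a TPM of 2071 and 894, 2.32-fold lower (2.28 to 2.35). Nnat lies inside an intron of Blcap on the other strand, and Blcap had a TPM of 177 and 38.1. The ratio of Nnat to Blcap was 11.7 for E14 and 23.4 for E14-Sox2TA/WT.

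The promoter windows of Nnat and Mest show a sequence feature that the choice of genes did not use. The hexamer TGCCGC is bound, when methylated, by ZFP57, a zinc finger protein that keeps the methylation of imprinting control regions. It was searched on both strands, so that its reverse complement GCGGCA counts as well, and no other motif was searched with it. RefSeq windows were found for 28 of the 35 genes and not for Peg10, Trappc9, Rtl1, Impact, Sgce, Cdkn1c and Peg13. The hexamer occurred in the windows of 10 of the 28 genes, or 35.7%, and in those of 13.1% of all 27025 genes with a window. Of single windows, 11 of 38 held it, or 28.9%, and 11.6% of all 32851. The windows of Mest that start at chr6:30737800 and chr6:30737803 overlap almost wholly, hold the same matches and were both counted.

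By expressed allele, the hexamer was present for 6 of 15 paternal, 2 of 7 maternal and 2 of 6 tissue-dependent genes. The windows were also rich in CG, with a median of 15 CG dinucleotides per window, against 7 over all windows, and a range from 0 for Rian to 45 for Grb10. The hexamer itself holds a CG, and the windows of all genes were not matched for CG content. The shares with the hexamer thus cannot be told apart from this richness in CG. A match describes these letters in this window and not a bound site. Nnat (called lower) and Mest (higher, not called) are printed because both carry the hexamer, in capitals, and differ in direction. The Nnat window is chr2:157559828-157560127 with 1 match and the Mest window chr6:30737800-30738099 with 2 matches, both on the plus strand of GRCm38.p6.
Nnat: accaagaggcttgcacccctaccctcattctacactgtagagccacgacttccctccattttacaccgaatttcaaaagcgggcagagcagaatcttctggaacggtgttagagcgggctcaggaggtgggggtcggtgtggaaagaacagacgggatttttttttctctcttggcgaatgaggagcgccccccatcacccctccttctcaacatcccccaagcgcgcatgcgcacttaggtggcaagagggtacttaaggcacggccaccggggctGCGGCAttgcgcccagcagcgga
Mest: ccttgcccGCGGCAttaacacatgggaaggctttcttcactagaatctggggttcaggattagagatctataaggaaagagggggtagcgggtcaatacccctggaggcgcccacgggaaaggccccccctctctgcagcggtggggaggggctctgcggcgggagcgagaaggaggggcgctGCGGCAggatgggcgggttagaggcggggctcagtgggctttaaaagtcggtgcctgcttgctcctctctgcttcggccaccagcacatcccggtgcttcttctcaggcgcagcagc
This pair was picked for its opposite directions and does not give the balance over the set. Among the genes with the hexamer, Mest and Mcts2 had higher TPM in the E14-Sox2TA/WT library. Meg3, Grb10, Copg2, Nap1l5, Nnat, Zim1, Plagl1 and Snrpn had lower TPM, as had most of the imprinted genes. A link between the hexamer and the direction was not tested.

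Plagl1 on chromosome 10 encodes a zinc finger transcription factor that restrains proliferation and is read from the paternal copy. It had 11596 and 7932 reads and a TPM of 95.4 and 57.2, 1.67-fold lower (1.62 to 1.72). Gnas on chromosome 2 encodes the stimulatory G protein alpha subunit and several other imprinted transcripts. Its reads were 47725 and 30023 and its TPM 613 and 339, 1.81-fold lower (1.79 to 1.84). Neither was called.

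Impact on chromosome 18, which restrains the kinase GCN2 and is abundant in brain, did not have lower TPM. It had 5207 and 7251 reads and a TPM of 50.04 and 55.1, 1.10-fold higher (1.06 to 1.14). Per library total the ratio was 1.44, and the implied length was 1.14 times longer in the E14-Sox2TA/WT library.

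The other genes lie inside a host gene or contain an imprinted gene, and their pairs did not all move together. Mcts2, a paternally expressed retrogene in an intron of H13, had 973 and 1201 reads and a TPM of 50.6 and 55.9, 1.11-fold higher (1.02 to 1.20). H13, which encodes signal peptide peptidase, had 6738 and 4301 reads and a TPM of 68.2 and 42.0, 1.62-fold lower (1.56 to 1.69). The ratio of Mcts2 to H13 was 0.742 in the first library and 1.33 in the second.

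Zrsr1, a retrogene for a splicing factor subunit on chromosome 11, lies inside Commd1 on the other strand, with 412 shared exon bases. It had 3793 and 1535 reads and a TPM of 35.1 and 12.7, 2.76-fold lower (2.60 to 2.93), and Commd1 had a TPM of 214 and 128. Nap1l5, of the nucleosome assembly protein family, lies in Herc3 on chromosome 6. It had 2612 and 1737 reads and a TPM of 57.3 and 34.1, 1.68-fold lower (1.58 to 1.78), close to Herc3 with a TPM of 10.5 and 6.51. Zrsr1 was called lower and Nap1l5 was not.

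Peg13, a paternally expressed lncRNA on chromosome 15, lies within Trappc9, a gene of vesicle transport that is read mainly from the maternal copy in brain. Peg13 had 733 and 366 reads and a TPM of 6.45 and 2.88, 2.24-fold lower (1.97 to 2.54) but under the TPM filter. Trappc9 had 3056 and 1434 reads and a TPM of 31.3 and 13.1, 2.39-fold lower (2.25 to 2.55), and was called lower. The genes of chromosome 15 as a whole had the opposite direction, with a median 0.41 above that of all genes on the log2 scale.

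Grouped by allele, the 19 paternally expressed genes with a TPM of at least 1 had a median log2 ratio of -1.21, and 16 of them were lower. Of the 17 that passed a TPM of 10, 9 were called lower, or 52.9% beside the 18.7% of all genes. Of these 9, 4 (Snrpn, Ndn, Magel2 and Mkrn3) lie in the Snrpn-Ube3a region. The 8 maternally expressed genes had a median of -0.50, with 7 lower and 1 higher. Of the 5 that passed a TPM of 10, 1 was called lower, or 20%, near the share over all genes. Meg3, Rian and Mirg, all of the Dlk1-Dio3 region, are among these 5. Genes of 1 region are not independent, so these shares rest on fewer regions than genes. The 7 tissue-dependent genes had a median of -0.86, all of them were lower, and 3 were called, or 42.9%. The groups overlapped widely, since maternal genes ran from -2.97 (Zim1) to 1.54 (Phlda2) and paternal genes from -4.13 (Magel2) to 0.28 (Mest). These medians moved with the settings. The maternal median was -0.19 on reads per library total and -0.30 on FPKM. With a TPM of 10 required of both libraries, the paternal median was -0.73 and the maternal one -0.62. Of the 5 lncRNAs, Meg3, Rian, Mirg, Kcnq1ot1 and Peg13, 3 (Meg3, Rian and Mirg) passed the TPM filter and 0 of these were called, a number too small to set against the share over all genes. The 4 lncRNAs with a TPM of at least 1 had a median of -0.56.

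**Figure D3:**
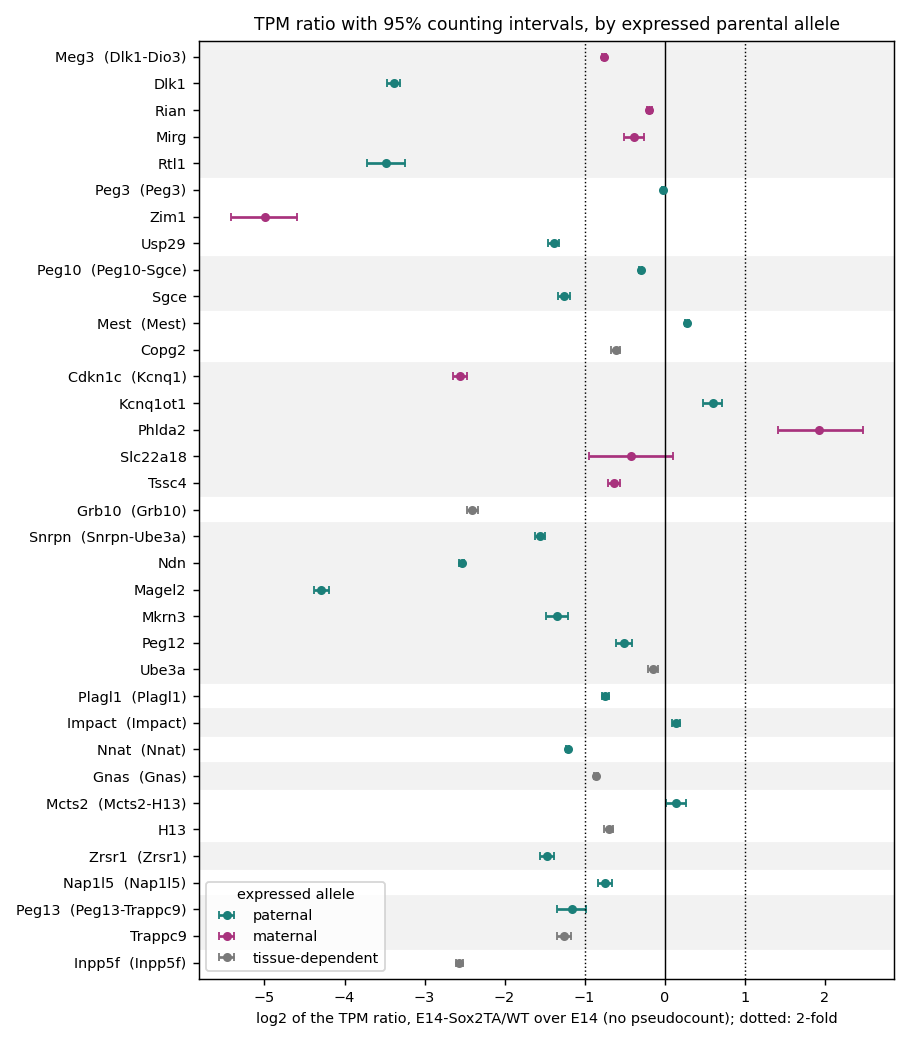
The log2 of the TPM ratio, E14-Sox2TA/WT over E14, for each imprinted gene without a pseudocount, coloured by the expressed parental allele, with bars for the 95% counting interval and dotted lines at 2-fold. Paternal (teal), maternal (magenta) and tissue-dependent (grey) genes occur on both sides of the lower 2-fold line, and Phlda2 alone lies beyond the upper one.

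Neighbours that are not members, within 500 kb and with a TPM of at least 1, were set beside the members of the 8 regions with several genes. Some of these neighbours are imprinted too, and the number on the lists of other imprinted genes or of the Igf2 axis is given for each region. An unlisted neighbour can still overlap a member or be imprinted, so the unlisted ones are not an unimprinted background. In the Snrpn-Ube3a region, 18 neighbours had a median log2 ratio of -1.10, beside -1.40 for the members. Snurf, Snhg14 and Atp10a are the 3 listed as imprinted, and the other 15 had a median of -1.14. Among the other 15 is Gm32061, whose span holds Ndn, Magel2 and Mkrn3. In the Dlk1-Dio3 region the 19 neighbours had a median of -0.81 and the 5 members -0.76. Without Begain, the 1 listed as imprinted, the neighbours had a median of -0.63. They include small RNA genes that overlap Rian, such as AF357425 and Mir1188, or Mirg, such as Mir377 and Mir485. Most neighbours in both regions have few reads, and only 2 of the 18 and 3 of the 19 reached a TPM of 10.

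In the 3 regions without a listed neighbour, the distance between the medians varied. The 15 neighbours in the Peg3 region had a median of -0.76, and the 3 members -1.33. Around Mest and Copg2, the 10 neighbours had a median of -0.36 and the pair -0.16, a value that was 0.04 on FPKM. The 23 neighbours of Mcts2 and H13 had a median of 0.09, and the pair -0.27.

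Around Peg10 and Sgce, whose median was -0.77, the 4 neighbours had a median of 0.75, but 3 of them are listed as imprinted. Of these, Ppp1r9a had a TPM of 23.2 and 9.14 and was called lower like Sgce, while Casd1 had 20.7 and 29.2 and Pon3 had 4.12 and 9.43. The unlisted neighbour, Col1a2, a collagen of fibroblasts, had a TPM of 71.6 and 249.

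Peg13 and Trappc9 had a median of -1.07 and their 7 neighbours 0.13, of which 3 are listed as imprinted. The potassium channel gene Kcnk9, with a TPM of 11.8 and 3.31, and Ago2, of the RNA interference machinery, with 18.9 and 8.88, were called lower, and Chrac1 had 79.1 and 85.9. The 4 unlisted neighbours had a median of 0.18.

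The Kcnq1 region adjoins the domain of Igf2 and H19 on chromosome 7, and 9 of its 20 neighbours are listed. The 20 had a median of -0.46, the 11 unlisted ones -0.51 and the 4 members -0.44. The unlisted ones include Igf2os, named for the strand opposite Igf2. Igf2, the fetal growth factor, had a TPM of 1113 and 269, and H19, the maternally expressed lncRNA, had 845 and 2463.

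Markers of the cell types a teratoma can hold moved between the same libraries, and since many imprinted genes are known to be unevenly expressed among such cells, their values are given beside those of the imprinted genes. For the calls in each marker list, the shares over all genes past the TPM filter were 18.7% lower and 10.8% higher. All 15 neuron markers had lower TPM in the E14-Sox2TA/WT library, 14 of them called, with a summed TPM of 3789 and 627 and a median log2 ratio of -2.23. Tubb3, a tubulin of neurons, had a TPM of 1722 and 170. All 10 neural progenitor markers were lower as well, 8 of them called, with a sum of 3061 and 885 and a median of -1.82. No neuron or neural progenitor marker was at 0 in either library.

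Markers of skeletal muscle were lower for 10 of the 12 with a TPM of at least 1, with a sum of 397 and 220 and a median of -0.78. Cartilage markers were mixed, with 8 lower and 3 higher of the 11 with a TPM of at least 1, and a median of -0.15. Only Sox9 was called, as lower. Comp, Matn1 and Snorc stayed below a TPM of 1 and were higher, and Matn1 and Snorc were at 0 in the E14 library. The sum over all 14 cartilage markers was 182 and 160. The 13 fibroblast and mesenchyme markers were all higher, 6 of them called, with a sum of 805 and 1869 and a median of 0.93. Marker lists of different tissues thus had opposite directions between the libraries.

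Pluripotency markers stood far apart, with all 15 called higher, a sum of 98.1 and 2177 and a median of 3.64. Pou5f1 had a TPM of 19.03 and 304. All 14 visceral endoderm and liver markers were higher, 8 of them called, with a sum of 28.1 and 458 and a median of 3.30, and 2 of them, Apoa2 and Fga, were at 0 in the E14 library. Trophoblast markers were higher for 10 of 11, with a sum of 61.8 and 182 and a median of 1.58, and 5 of them (Cdx2, Hand1, Prl3d1, Prl2c2 and Tpbpa) were at 0 in the E14 library.

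Cells that the host can supply were also compared. The 14 macrophage and neutrophil markers were all higher, 3 of them called, with a sum of 1079 and 1831 and a median of 0.77. Of the 10 endothelium markers, 8 were higher, with a sum of 134 and 169 and a median of 0.16. The part of these cell types in the values of the imprinted genes was not tested.

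**Figure D4:**
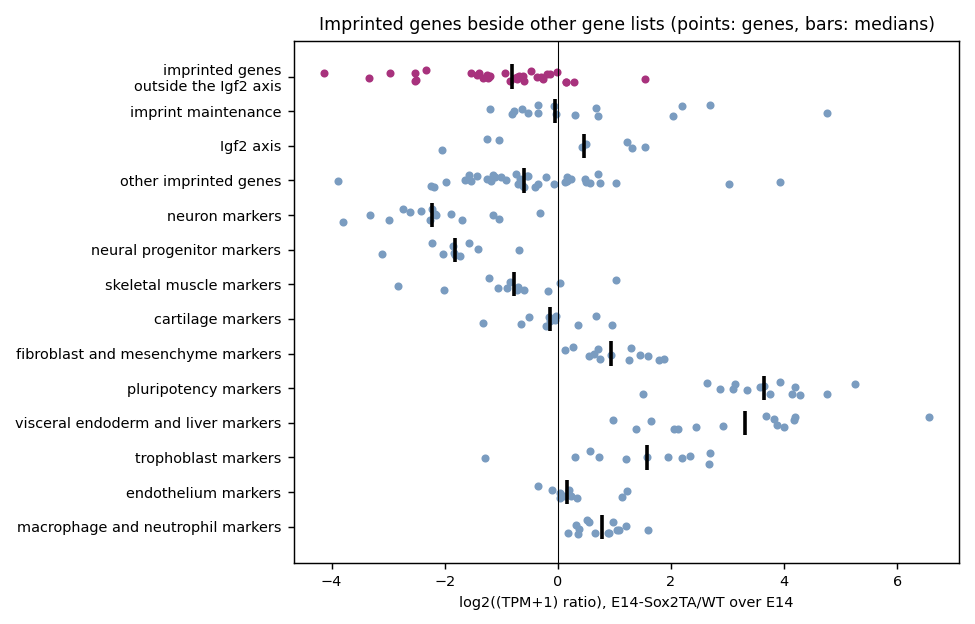
Log2 ratio of TPM with 1 added, E14-Sox2TA/WT over E14, for single genes (points) of the imprinted set (magenta) and of other gene lists (blue) with a TPM of at least 1, with bars at the medians. The imprinted set has its median at -0.81, near the skeletal muscle list (-0.78) and the other imprinted genes (-0.60). The neural lists lie lower (-2.23 and -1.82). The cartilage list (-0.15) and the fibroblast, endoderm and pluripotency lists (0.93, 3.30 and 3.64) lie higher.

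Genes that maintain imprints, or that add or remove DNA methylation, went in both directions. Of 16 such genes, 9 were lower and 7 higher, with a median log2 ratio of -0.05, 1 called lower and 4 called higher, and a summed TPM of 802 and 1109. Trim28, the corepressor that ZFP57 recruits, had a TPM of 213 and 351, and Uhrf1, which brings the maintenance methyltransferase to replicated DNA, had 74.8 and 119. Zfp57 itself had a TPM of 61.5 and 76.2, 1.24 times higher (1.19 to 1.29). Dnmt3l, a cofactor of new DNA methylation that is also on the pluripotency list, had 2.25 and 86.7, and Dppa3, which protects methylation in the early embryo, had 5.30 and 39.6. These 5 are the most abundant genes of the list and those with the largest ratios, and all are higher. Among the 9 lower ones, chosen after their values were seen, Tet3, which oxidises methylated cytosine, had 26.5 and 11.0 and was the 1 called lower. Zfp445, a zinc finger protein that also protects imprints, had 64.3 and 36.2, Setdb1, a histone methyltransferase that Trim28 recruits, had 64.5 and 41.3, and Dnmt1, the maintenance methyltransferase, had 72.7 and 56.5.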

How the data were processed

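RNA-seq of 1 E14 teratoma and 1 E14-Sox2TA/WT teratoma library was analysed. The authors deposited read counts per gene, which are whole numbers and not normalized. The authors also deposited FPKM, which accounts for library size and transcript length, and TPM, with a fixed sum per library. The submitters' processing notes name bcl2fastq 2.20.0, Trimmomatic, HISAT2 2.1.0 and StringTie 2.1.3b, with mm10 and hg19, and give no role for each. Strand use and the version of Trimmomatic are not given in the sources used here. Of 45777 gene identifiers, 45675 matched a RefSeq table of GRCm38.

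From these values the TPM ratio was computed, and log2 ratios had 1 added to each TPM unless said otherwise. A call required a TPM fold above 2 and a level of 10 TPM in either library. Medians covered genes with a TPM of at least 1. No p-value was computed, because there is 1 library per group, and counting intervals at 95% do not cover differences between tumours. Lengths implied by counts and FPKM differed by over 10% between the libraries for 6.08% of 11551 genes and for 5 imprinted genes (Meg3, Dlk1, Ube3a, Impact and Tssc4), whose ratios therefore depend most on the unit.

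The members, gene lists and rules were chosen with earlier results of these data known, from general knowledge. Named genes were all 35 members, genes of each list with the highest TPM or the largest ratio, and the most abundant neighbours within 500 kb, with overlapping genes and some list members added after their values were seen. The files give 1 value per gene, and alleles and isoforms were not separated. The scripts were tested on simulated data. Calls and medians were repeated with other TPM filters, with FPKM, after centring and with counts scaled by library total, by TMM factors or by median-of-ratios factors, both from edgeR 4.0.16 in R 4.3.3. Calls were repeated with other fold thresholds, and medians and single ratios with a pseudocount of 0.1. Tables were handled with pandas 2.3.3 and numpy 2.4.6, intervals with scipy 1.17.1 and plots with matplotlib 3.10.9, in Python 3.11.15.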

Additional observations from a re-analysis of the deposited data

How the results depend on the processing

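No paired analysis was possible because each group has a lone library, and for the same reason neither library could be left out. The 13 genes called lower passed under all 6 scalings, and 0 were called higher under any scaling. Called lower were 20 of 29 genes above 1.5-fold and 6 of 29 above 3-fold, where 32.3% and 8.77% of all genes were. With a TPM of at least 1 (34 genes), or with no TPM filter (35 genes), 1 gene (Phlda2) was called higher and 16 lower. Of all genes, 19.3% and 20% were called higher under these filters, and 18.9% and 13.1% lower. The median log2 ratio of the imprinted genes was -0.76 without a filter, -0.73 where both libraries reached a TPM of 10, -0.61 on FPKM, -0.71 on library totals, -0.75 after centring on all genes, and -0.74 without chromosomes 8, 15 and Y, an alternative added after the data were seen. The paternal median was -1.08 without a filter, -0.73 where both libraries reached a TPM of 10, -1.01 on FPKM and -1.02 on library totals. The maternal median was -0.62 where both libraries reached a TPM of 10, -0.30 on FPKM, -0.19 on library totals, -0.32 with TMM factors and -0.31 with median-of-ratios factors. All medians stayed below 0. The median of all genes shifted by 0.18 between TPM and FPKM and by as much between TPM and library totals. The filter in both libraries removes genes that are low in 1 library by its construction. Of the 35 genes, 27 were lower and 5 higher under every scaling, and 3 (Rian, Peg3 and Ube3a) changed sign. On FPKM, 14.3% of all genes were called lower and 13.7% higher, against 18.7% and 10.8% on TPM. Depth limits Slc22a18 and Phlda2 most, with 38 to 166 reads.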

Other observations

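Of 43 further genes listed as imprinted, 41 had a row and 37 had a TPM of at least 1, of which 25 were lower and 12 higher in the E14-Sox2TA/WT library, with a median log2 ratio of -0.60. Of the 24 that reached a TPM of 10, 10 were called lower, or 41.7%, a share near the 44.8% of the imprinted set, and 2 were called higher. Of all genes past that filter, 18.7% were called lower and 10.8% higher. The list includes Commd1, Blcap and Herc3, which host genes of the set. Cd81, a tetraspanin, had a TPM of 385 and 289. Dcn, the matrix proteoglycan decorin, is also on the fibroblast list and had 232 and 382. Slc38a4, a paternally expressed amino acid transporter on chromosome 15, had 652 and 12623 reads and a TPM of 6.89 and 119, 17.4 times higher (16.0 to 18.8). Dlx5, a homeobox gene of the forebrain and skeleton, had 1402 and 72 reads and a TPM of 41.6 and 1.88, 22.1-fold lower (17.4 to 28.4).

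The genes around Igf2 moved in both directions. Of 9 listed, 8 had a TPM of at least 1, with a median log2 ratio of 0.46. These 8 also reached a TPM of 10, and 3 were called lower, or 37.5%, and 3 higher. Of all genes past that filter, 18.7% were called lower and 10.8% higher. Igf2bp2, which binds Igf2 mRNA, had a TPM of 37.1 and 50.2. Igf2r, which clears IGF2 and is read from the maternal copy, had 31.8 and 12.8, and Airn, the paternally read lncRNA that silences it, had 4.75 and 12.3. Whether these genes differ from the 35 as a group was not tested.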
